A study of Mus musculus with 3 samples.

Results

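The coelomic epithelium is the single sheet of cells that lines the body cavity and covers the gonadal and mesonephric ridges. In these droplet data from the mouse aorta-gonad-mesonephros (AGM) region it was taken as the cell barcodes with at least 2 UMIs (unique molecular identifiers, each counted as 1 captured transcript) of Upk3b, at least 1 of Wt1, none of Nr5a1 or Amhr2 and none of Cdh5. Upk3b encodes a uroplakin of mesothelial surfaces and Wt1 a zinc-finger factor of the coelomic lining, kidney and gonad. Nr5a1 and Amhr2 mark gonadal somatic cells, and Cdh5 marks endothelium. The rule selected 50 barcodes of the 6787 that passed the quality filters in the 4 libraries examined, a share of 0.737% (exact Clopper-Pearson 95% interval 0.547 to 0.970%, counting error only), out of 9383 such barcodes in all 8 libraries. Because the barcodes were chosen by these 5 genes, the levels of those genes are given only as a description.

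The coelomic epithelium is an epithelium of mesodermal origin. It keeps keratin filaments and apical polarity proteins, yet it can release cells into the mesenchyme beneath by epithelial to mesenchymal transition. Over the genital ridge it gives rise to somatic cells of the gonad, and elsewhere along the body wall and viscera it becomes mesothelium. Its retinoic acid, made by the enzyme Aldh1a2, is a known signal to neighbouring tissue, and Wt1 is required for the gonad, the kidney and the mesothelium to form.

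The study sampled the AGM of E10.5 embryos with 28 to 32 somite pairs to examine how cells around the aorta signal while haematopoietic stem cells emerge. Pooled embryos gave 3 sorted populations with 1 sample each: AGM niche cells (live, Ter119-), endothelial cells (Ter119-CD31+VCad+CD41-cKit+) and T1-preHSCs (Ter119-CD31+VCad+CD41lowcKit+), of which the last is a precursor gate for haematopoietic stem cells. All 3 sorts excluded Ter119, an erythroid antigen, and strain and genotype are not given in the sources used here. The 8 libraries are the numeric barcode suffixes of 1 pooled matrix. No label ties a library to a sort, so the matrix was treated as 1 sample and no test or p-value was computed.

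The 50 members came as 5, 17, 14 and 14 barcodes from libraries 1 to 4, and as none from libraries 5 to 8. Library 1 held the smallest share, 0.273% (0.0888 to 0.637%), and library 2 the largest, 1.03% (0.602 to 1.65%). The members had a median of 7581 UMIs (3196 to 23002) and 2504 genes, against 7398 UMIs and 2473 genes in the other 6737 barcodes of libraries 1 to 4. The median share of mitochondrial UMIs was 3.0% in the members and 2.47% in the others. Together the members held 401189 UMIs, so a gene with no UMI in them lay under 7.48 CPM (the group's UMIs scaled to the usual CPM total), the level of 3 counts. Of all barcode sequences, 54 were found in 2 libraries, and 1 of them belonged to a member.

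Of the 5 marker genes, Aldh1a2, Myrf and Krt19 were not used by the rule. Aldh1a2 (chr9:71215789-71296243, mm10) was detected in 34 of the 50 members, with a lowest level of 0, a median of 290 and a highest of 1301 CPM per barcode. Summed over the members it reached 401 CPM (Poisson 95% interval 342 to 468), against 37.2 CPM in the other barcodes. Myrf (chr19:10208272-10240748), a membrane-bound transcription factor, was detected in 35 members with a median of 154 and a highest value of 542 CPM, and its summed level was 160 CPM (123 to 204) against 11.2 CPM. Krt19 (chr11:100140810-100148665), a keratin of simple epithelia, was detected in 16 members only. Its summed level was 92.2 CPM (64.9 to 127) against 4.96 CPM. The summed levels of all 3 markers thus went with the label, while single members often had none of a given marker.

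Free RNA and depth bear on such shares of barcodes. Aldh1a2 had a UMI in 68% of members, 14.1% of the other barcodes and 13.7% of 234 barcodes with at least 2 UMIs of the skeletal muscle factor Myog, whose median depth was 8771.5 UMIs. With every barcode thinned to 2000 UMIs, which left out no member, 34 of the others and 4 of the Myog barcodes, these shares were 52%, 5.74% and 4.78%. The thinned shares for Myrf were 30%, 2.46% and 0.870%. Those for Krt19 were 8%, 0.880% and 2.61%, and without thinning 32% of members had Krt19.

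The barcodes on both sides of the Upk3b threshold held the other markers. The 16 members with exactly 2 Upk3b UMIs had 523 CPM of Aldh1a2, 387 CPM of Krt18, 135 CPM of Podxl and 207 CPM of Myrf. The 10 members with 3 UMIs had 321, 202, 59.5 and 71.4 CPM of the same genes. The 30 barcodes just outside had 1 Upk3b UMI and otherwise met the rule. They had 225, 199, 82.3 and 147 CPM, above the members with 3 UMIs for Podxl and Myrf. The 52 barcodes with at least 2 Upk3b UMIs and no Wt1 UMI had 206, 327, 110 and 112 CPM. The 21 barcodes left out of the rule only by a UMI of Nr5a1 or Amhr2 had 345, 223, 128 and 100.2 CPM. Among members, Krt19 was at 162 CPM with 2 Upk3b UMIs, 11.9 CPM with 3 and 87.3 CPM with 4 or more. It was at 47.6 CPM in the 30, 60.1 CPM in the 52 and 5.57 CPM in the 21 barcodes outside.

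Against the other barcodes, the coelomic epithelium stood out by keratins, apical membrane proteins and Aldh1a2. A gene was called when log2((CPM + 10) / (CPM + 10)) was at least 1 in size and the higher group reached 50 CPM, among genes with at least 10 CPM in either group. On this scale, which understates the change of low genes, 101 of 8114 genes were higher in the members (1.24%) and 52 were lower (0.641%), with a median log2 ratio of 0.03 over all genes compared. Of a list of 32 mesothelial and coelomic genes, 20 were compared. Of these, 8 were higher (Krt8, Krt18, Krt19, Lrrn4, Aldh1a2, Myrf, Podxl and Cdh3), none was lower, and the median log2 ratio was 1.46. The list was drawn up for cells of this kind, so its direction is not independent of how the members were chosen.

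Krt18, which pairs with Krt8 in the filaments of simple epithelia, was present in 40 of 50 members, at a median of 201 and a highest value of 1261 CPM. Its summed level was 292 CPM (241 to 350) against 28.8 CPM, a log2 ratio of 2.96. Podxl, the sialomucin of apical surfaces that is also a marker of podocytes and endothelium, was present in 28 members and reached 147 CPM (112 to 190) against 7.74 CPM, a log2 ratio of 3.15. The leucine-rich repeat protein Lrrn4, known from mesothelial cells, was present in 24 members at 82.3 CPM (56.6 to 116) against 1.98 CPM, a log2 ratio of 2.94. None of these 3 genes was detected in every member. Of the 32 genes of the mesothelial list, 8 had 0 UMIs in all 50 members, which allows up to 7.48 CPM. Among them were Msln and Muc16, both mesothelial surface glycoproteins of later stages. Others of the list, such as Bnc1 and Krt7, had UMIs in some members.

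The list of epithelial junction, polarity and keratin genes gave 10 higher and none lower of 19 compared, with a median log2 ratio of 1.38. Ezr, which links the apical membrane to actin, was at 145 CPM against 22.8 CPM. F11r, a tight junction adhesion molecule, was at 160 against 24.9 CPM. Crb2 and Mpp5, 2 members of the apical Crumbs complex, were at 54.8 against 11.1 CPM and 82.3 against 24.6 CPM. Tjp1, a tight junction scaffold, was at 77.3 against 29.5 CPM. Among cadherins, Cdh3 was at 62.3 against 10.6 CPM and Cdh2 at 87.2 against 65.5 CPM. Cdh1, the cadherin of most epithelia, had 0 UMIs in the members and Epcam 1 UMI. Of the list's 35 genes in the data, 9 had 0 UMIs in all members. These were Cdh1, Cldn6, Cldn7, Ocln, Tjp3, Crb3, Marveld2, Esrp1 and Grhl2. The coelomic cells thus held keratin and polarity transcripts without detectable Cdh1 at this depth. Against the gonadal barcodes described below, 2 of 18 compared genes of this list were higher (Podxl and Krt19) and none was lower. The median log2 ratio there was 0.38.

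**Figure D1:**
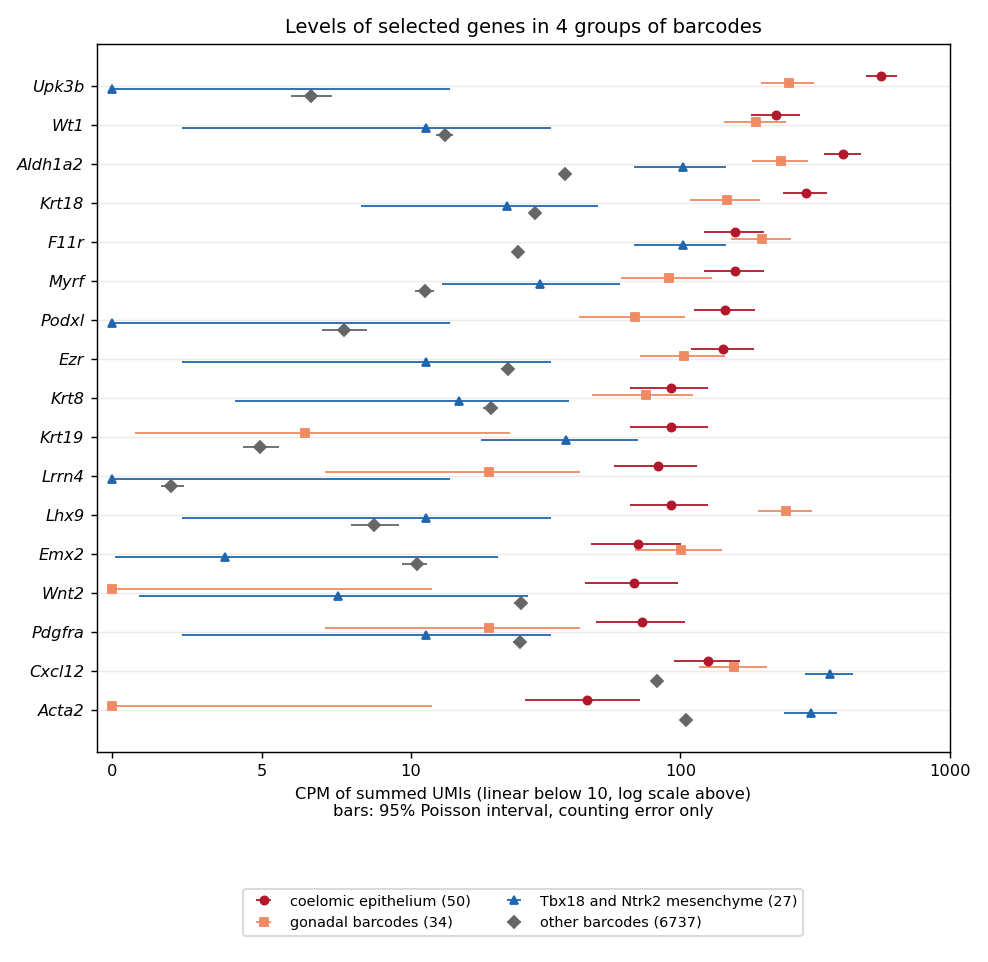
Summed level (CPM, linear below 10 and on a log scale above) of 17 genes in the 50 coelomic epithelium barcodes, 34 gonadal barcodes, 27 Tbx18 and Ntrk2 mesenchyme barcodes and 6737 other barcodes, with 95% Poisson intervals that cover counting error only. Upk3b and Wt1 were used to choose the members. Krt19 and Wnt2 lay above the gonadal level, Lhx9 lay below it at 92.2 against 246 CPM, and Cxcl12 and Acta2 were highest in the mesenchyme, where 1 barcode held 73 of the 81 Acta2 UMIs.

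Upk3b, Lrrn4 and Lhx9 are shown here with the sequence upstream of their starts because Upk3b defines the members, Lrrn4 was among their most raised genes and Lhx9 split them. The sequences are from RefSeq, build GRCm38.p6, and run 5′ to 3′ on the gene's strand from 250 to 51 bases before its start, at chr5:136038246-136038445 (plus strand), chr2:132880913-132881112 (minus) and chr1:138842495-138842694 (minus). Capitals mark matches, on either strand, to 4 short motifs: CTGGCAC for Myrf, GGAATG for TEAD factors, AGATAA or TGATAA for GATA factors, and GTGGGNG for Wt1-like zinc fingers.
Upk3b: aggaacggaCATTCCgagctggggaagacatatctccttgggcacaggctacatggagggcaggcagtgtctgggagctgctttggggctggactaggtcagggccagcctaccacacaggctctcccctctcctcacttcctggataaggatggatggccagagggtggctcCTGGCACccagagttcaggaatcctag
Lrrn4: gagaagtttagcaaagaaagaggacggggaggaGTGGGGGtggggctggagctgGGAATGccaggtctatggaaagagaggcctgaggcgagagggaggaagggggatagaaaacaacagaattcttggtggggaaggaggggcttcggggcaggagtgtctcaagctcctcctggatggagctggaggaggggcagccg
Lhx9: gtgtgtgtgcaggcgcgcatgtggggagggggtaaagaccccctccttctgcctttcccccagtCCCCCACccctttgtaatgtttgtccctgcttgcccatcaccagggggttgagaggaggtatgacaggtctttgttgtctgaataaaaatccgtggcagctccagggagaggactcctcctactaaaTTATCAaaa
Upk3b held the Myrf motif 77 to 71 bases before its start and a TEAD match on the opposite strand 241 to 236 bases before it. Lrrn4 held the Wt1-like match 217 to 211 and the TEAD match 196 to 191 bases before its start, and Lhx9 held the Wt1-like match 186 to 180 and the GATA match 59 to 54 bases before its own. None of these matches overlapped another. Of the 101 genes higher in the members, 75 matched the promoter table, with 99 promoters. In the 250 bases before the start, the Myrf motif was found in 2.02% of these promoters against 4.19% of all 32851 promoters, the TEAD motif in 11.1% against 12.6%, the GATA motif in 11.1% against 16.6% and the Wt1-like motif in 38.4% against 28.1%. A match is a description of letters, not of a bound site.

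Of 24 transcription factors of the intermediate mesoderm and the gonad compared, Lhx9, Emx2 and Gata6 were higher, none was lower, and the median log2 ratio was 0.26. Lhx9 (chr1:138825186-138848577), a LIM homeobox factor needed for the gonad, was present in 15 members at a summed 92.2 CPM (64.9 to 127) against 8.77 CPM. It had no UMI in the Myog barcodes and a UMI in 16% of members after thinning, against 1.24% of the others. Emx2, a homeobox factor of the urogenital ridge, was present in 18 members at 69.8 against 10.5 CPM. Gata6, a zinc-finger factor of mesodermal and endodermal lineages, was also present in 18 members, at 57.3 against 9.40 CPM. Its relative Gata4 was at 37.4 against 1.98 CPM, under the level asked for a call. One member held 6 Gata4 UMIs, and no other held more than 2. The broadly expressed cofactor Meis2 was at 364 against 281 CPM. Pax2 and Lhx1, factors of the nephric duct and tubules, had 0 UMIs in the members.

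In the retinoid pathway the synthetic enzyme and the binding proteins went opposite ways. Of 12 genes compared, Aldh1a2 was higher and the cellular retinoic acid binding proteins Crabp1 and Crabp2 were lower, with a median log2 ratio of -0.06. Crabp2 was at 127 against 449 CPM and lower in each of the 4 libraries. Crabp1 was at 207 against 660 CPM, and 1 member held 57 of its 83 UMIs. The receptor Rara was at 37.4 against 38.5 CPM, and Rarb, a receptor that is itself a retinoic acid target, at 22.4 against 24.3 CPM. Thus Aldh1a2 transcripts were raised without a called difference in these receptors.

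Of 12 BMP and TGF-beta genes compared, 3 were higher (Bmp4, Bambi and Ltbp1), none was lower, and the median log2 ratio was 0.74. Against the gonadal barcodes described below, none of 15 was called and the median was -0.05. The ligand Bmp4 was at 107 CPM (77.6 to 144) against 35.3 CPM, in 22 members. Bambi, a decoy receptor and BMP target, was at 179 CPM (140 to 226) against 36.3 CPM, in 26 members. Ltbp1, which holds latent TGF-beta in the matrix, was at 79.8 against 19.0 CPM. The target genes Id3 and Id2 were at 1012 against 566 CPM and 309 against 192 CPM, both under the fold asked for.

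Of 19 WNT and R-spondin genes, Wnt2 was higher and the secreted antagonist Sfrp2 lower, with a median log2 ratio of 0.04. Wnt2 had a UMI in 8 of 50 members, with a highest value of 946 CPM, and a summed level of 67.3 CPM (44.4 to 97.9) against 25.5 CPM. The 2 highest members held 5 of the 27 UMIs each, and the call ended when 1 of them was left out. Sfrp2 was at 4.99 against 61.6 CPM. Wnt4, a ligand of the female gonad and nephron, was at 44.9 against 11.4 CPM in 5 members. A single member held most of the Wnt4 UMIs, 13 of them. Rspo1, an enhancer of WNT signalling, was at 22.4 against 3.96 CPM in 9 members. Of the other pathways, no FGF gene of 9, no hedgehog gene of 7 and no YAP and TAZ gene of 13 was called in either direction. Among 8 Notch genes only Hes5, a Notch target of neural progenitors, was called. It had 0 UMIs in the members and 56.5 CPM in the others, at least 7.56-fold lower against 3 counts. The ligand-like Dlk1 was at 1279 against 695 CPM.

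Of 24 ligands with a known role for blood or endothelium, 3 were higher (Igfbp5, Sema3c and Bmp4), none was lower, and the median log2 ratio was 0.48. Igfbp5, an insulin-like growth factor binding protein, was at 322 against 130 CPM in 27 members. Sema3c, a secreted guidance cue, was at 54.8 against 9.78 CPM. The growth factors Mdk and Igf2 were found in all 50 members, at 2969 against 2619 CPM and 867 against 556 CPM, without passing the fold. Kitl, the ligand of Kit, was at 47.4 against 18.7 CPM, under the level asked for, and Cxcl12, a chemokine that retains blood progenitors, at 127 against 81.8 CPM. Without each gene's own top member, 1 of these 3 calls remained.

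Genes of epithelial to mesenchymal transition showed a mixed pattern. Of 21 compared, 3 were higher and 3 lower, with a median log2 ratio of -0.43. Pdgfra, a receptor of mesenchyme, was at 72.3 against 25.3 CPM in 19 members, Col1a1 at 77.3 against 27.7 CPM and the matrix protein Sparc at 818 against 273 CPM in 48 members. Prrx1, a factor of mesenchyme, was at 34.9 against 83.7 CPM, Tcf4 at 62.3 against 138 CPM and the smooth muscle actin Acta2 at 44.9 against 105 CPM, with UMIs in 3 members. The inducers Snai1 and Snai2 were at 7.48 against 28.0 CPM and 17.5 against 18 CPM. Without the 2 members rich in Tubb3 described below, 1 of the 3 lower calls remained. Of 21 basement membrane and matrix genes, the laminin chain Lamb1 and the fibulin Fbln2 were higher, at 54.8 against 22.2 CPM and 57.3 against 8.97 CPM. The proteoglycan Vcan was lower, at 34.9 against 95.6 CPM. Of 25 Hox genes, Hoxc9 was lower at 29.9 against 88.8 CPM and none was higher. None of 20 S-phase genes and none of 20 G2/M genes was called, and the proliferation marker Mki67 was at 167 against 160 CPM.

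Among the other genes with the highest ratios, Smim1 was at 122 against 11.6 CPM, Rnf213 at 69.8 against 3.40 CPM, Aebp1 at 79.8 against 7.71 CPM and Aplp1 at 94.7 against 10.8 CPM. Aebp1, a secreted carboxypeptidase-like matrix protein, was found in 22 members. The highest ratio of all was that of Myl7, the myosin light chain of atrial heart muscle, at 177 against 7.82 CPM, a log2 ratio of 3.39. A single member, in library 4 and the deepest of all, held 35 of its 71 UMIs, and another member held 19. Without the deepest member alone the log2 ratio was 2.56. The genes with the lowest ratios belonged to blood, muscle and neural cells. Hbb-y, Hba-x and Hbb-bh1 (embryonic globins), Pf4 (a platelet chemokine) and Myog had 0 UMIs in the members. Their levels in the other barcodes came from few barcodes, with UMIs of Hbb-y in 120 of 6737 and of Pf4 in 70. Against 3 counts Hbb-y was at least 46.8-fold and Myog at least 15.8-fold lower. Ckb, the brain creatine kinase, was at 42.4 against 434 CPM, and the muscle genes Actc1 and Mylpf were at 12.5 against 151 CPM and 7.48 against 105 CPM.

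Markers of other cell types were counted over their whole lists in the members. All 11 blood genes and all 8 macrophage genes were at 0. Of 9 endothelial genes Kdr, Cldn5 and Esam were at 0, as was Cdh5, which the rule set to 0. Of the 50 members 25 had some UMI of that list, and the summed level of the list ran from 0 to 473 CPM per member (others 0 to 10165). Of 12 nephric genes 6 were at 0, including Pax2, Lhx1 and Ret, and 33 members had none of the list. Its sum was still 105 CPM against 116 CPM in the others, with a highest member of 1352 CPM. Of 8 neural genes 4 were at 0 (Sox2, Pax6, Olig2 and Neurog2), 42 members had none of the list, and the highest member reached 6450 CPM. Of 7 myotome genes 4 were at 0, of 7 smooth muscle genes 3, of 7 gut epithelial genes 6, of 6 sclerotome genes 1, of 8 germ cell genes 6, of 6 neural crest genes 2 and of 6 sympathetic genes 2. Apart from the mesenchyme and gonadal lists below, only the sympathetic list summed higher in the members, at 52.3 against 41.9 CPM. The lists present in most members were that of mesenchyme, with UMIs in 47 of 50 members and a summed 461 CPM against 285 CPM in the others, and that of the gonad, with UMIs in 40 members and 339 against 228 CPM. Both lists were mixed. Of 7 mesenchyme genes compared with the others, Pdgfra and Col1a1 were higher and Prrx1 lower. Of 5 gonadal genes compared, Lhx9 and Emx2 were higher and Gadd45g lower, at 79.8 against 171 CPM. Gadd45g made up most of the gonadal sum in the others. Of the 10 gonadal genes Star and Nr0b1 were at 0, beside Nr5a1 and Amhr2, which the rule set to 0. The neural UMIs came mainly from 2 members, both in library 4. The first held 46 UMIs of Tubb3, 57 of Crabp1, 48 of Stmn2, 37 of Nefl and 30 of Nefm, all neuronal genes or enriched there, beside 4 of Upk3b and 2 of Wt1. The second was the deepest member, with 23002 UMIs, 18 of Tubb3, 35 of Myl7 and none of the other 4. Of these 2, 1 was removed by the doublet score used as an alternative, which took 4 of the 50 members. Without the 2, 96 genes were higher and 73 lower than in the other barcodes.

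The genes called on the sum were then examined within libraries 2, 3 and 4, which are part of that sum. Of the 101 higher genes, 96 were higher in each of libraries 2, 3 and 4, and of the 52 lower genes, 50 were lower in each. Against the gonadal barcodes this held for 55 of 74 higher and 54 of 57 lower genes, and against the mesenchyme for 96 of 118 and 72 of 106. Aldh1a2 was at 695, 459, 333 and 307 CPM in the members of libraries 1 to 4, against 35.8 to 39.7 CPM in the others. Krt18 was at 278, 383, 213 and 246 CPM in the members against 24.7 to 33.1 CPM. Library 1, with 5 members, departed for some genes: Ezr was at 27.8 CPM there, from 1 UMI, against 125 to 184 CPM in the other libraries. The log2 ratio of Tjp1 was -0.06 in library 3, against 1.68 in library 2 and 1.13 in library 4.

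**Figure D2:**
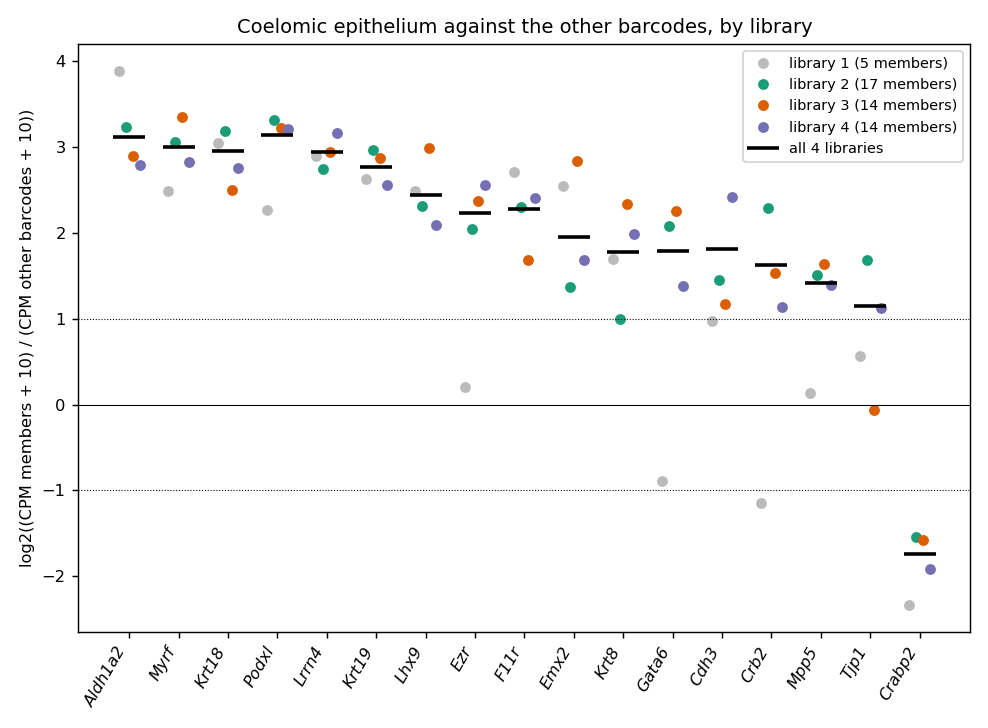
Log2 ratio of the members over the other barcodes of the same library (points, libraries 1 to 4 with 5, 17, 14 and 14 members) and over all 4 libraries (bars) for 17 genes, on the log2((CPM + 10) / (CPM + 10)) scale. Dotted lines mark a ratio of 1 and -1. The ratios of Aldh1a2, Myrf, Krt18, Podxl, Lrrn4 and Krt19 lay above 2 in every library, and that of Crabp2 below -1.

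The nearest cells were gonadal barcodes, taken as those with Wt1, at least 2 UMIs of Nr5a1 and Amhr2 together and no Cdh5. There were 34 of them, with a median of 7943.5 UMIs. Against these, 74 of 7975 genes were higher in the members (0.928%) and 57 were lower (0.715%), with a median log2 ratio of 0.03. These counts were 175 and 134 without library 2, and without each gene's own top member 32 of the 74 remained. When members could hold Nr5a1 or Amhr2, 34 of the 74 higher and 14 of the 57 lower genes were still called. The keratin Krt19 was at 92.2 CPM in the coelomic epithelium (16 of 50 barcodes) and 6.47 CPM in the gonadal barcodes, from 2 UMIs. Wnt2 was at 67.3 CPM and had 0 UMIs in the gonadal barcodes, at least 6.94-fold higher against their floor of 9.70 CPM. Fbln2, a matrix fibulin, was at 57.3 CPM against 0 UMIs, at least 5.91-fold higher. Pdgfa, the ligand of Pdgfra, was at 52.3 CPM against 0 UMIs, at least 5.4-fold higher, but 1 member held 10 of its 21 UMIs, and without it the call ended. Pdgfra itself was at 72.3 against 19.4 CPM. Tubb3 and the neurofilament gene Nefm had the highest ratios, at 165 against 3.23 CPM and 79.8 CPM against 0 UMIs, and both calls ended without the 2 members described above.

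Of the mesothelial list, Krt19, Lrrn4, Podxl and the adhesion protein Flrt3 were higher than in the gonadal barcodes, out of 19 compared. Aldh1a2 was at 401 against 236 CPM, Myrf at 160 against 90.5 CPM and Krt18 at 292 against 149 CPM, each under the fold asked for. Upk3b, a gene of the rule in the members only, was at 252 CPM in the gonadal barcodes. In the other direction, Chchd10, a mitochondrial protein, was at 57.3 CPM in the members and 517 CPM in the gonadal barcodes, a log2 ratio of -2.97, with UMIs in 30 of the 34. The hormone precursor Cck was at 17.5 against 100.2 CPM, the guidance receptor Robo2 at 9.97 against 71.1 CPM, the caspase Casp6 at 59.8 against 230 CPM, 6030408B16Rik at 12.5 against 97.0 CPM and Rpp25 at 15.0 against 77.6 CPM. Lhx9 was at 92.2 against 246 CPM, a log2 ratio of -1.32, and Kitl at 47.4 against 168 CPM, a log2 ratio of -1.63. Emx2 and Gata6 were at 69.8 against 100.2 CPM and 57.3 against 64.7 CPM. Lhx9 and Kitl thus passed the rule as higher in the gonadal barcodes, while Aldh1a2, Myrf and Krt18 passed it in neither direction. Both groups were chosen by Nr5a1 and Amhr2, so the directions of gonadal genes here are not independent of that choice. Lhx9 was at 362 CPM in the 21 barcodes that the members' rule left out only for a UMI of Nr5a1 or Amhr2.

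The other neighbour was a mesenchyme of 27 barcodes with Tbx18 and Ntrk2 and without Upk3b, Nr5a1, Amhr2 and Cdh5, at a median of 7976 UMIs. Here 118 of 8311 genes were higher in the members (1.42%) and 106 were lower (1.28%), with a median log2 ratio of -0.01. These counts were 205 and 184 without library 4, and without each gene's own top member 69 of the 118 remained. Podxl had 0 UMIs in the mesenchyme and was at least 13.0-fold higher in the members against 3 counts (11.3 CPM). Lrrn4, with 0 UMIs as well, was at least 7.26-fold higher. Krt18 was at 292 against 22.7 CPM and Ezr at 145 against 11.3 CPM, while Aldh1a2 was at 401 against 102 CPM. The junction and keratin list gave 9 higher and none lower of 19, with a median log2 ratio of 1.07. The mesothelial list gave 8 higher and none lower of 20, with a median of 1.70, or 1.14 with genes at 0 in 1 group set to 3 counts there.

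Of 21 transition genes, Pdgfra was higher in the members than in this mesenchyme and 6 were lower. Without each gene's own top mesenchyme barcode 2 were higher and 3 lower. Of the mesenchyme marker list 6 genes were compared, with Pdgfra higher, Prrx1 lower and a median log2 ratio of 0.39. Zeb2, a repressor of epithelial genes, was at 32.4 against 181 CPM, with UMIs in 11 of 50 members and 19 of 27 mesenchyme barcodes. Snai1 was at 7.48 against 56.6 CPM, Prrx1 at 34.9 against 110 CPM and Tagln at 29.9 against 143 CPM. Cxcl12 was at 127 against 359 CPM and Vcan at 34.9 against 162 CPM. Several of the lowest ratios came from single mesenchyme barcodes: Ttr was found in 1 of them, with 29 UMIs, Tfap2b in 2 with 24 of 25 UMIs in 1, and 73 of 81 Acta2 UMIs and 22 of 30 Actc1 UMIs were in 1 barcode each. Without those barcodes none of these 4 was called. The list of smooth muscle genes gave 4 lower of 5, Acta2 among them.

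The members themselves differed in Krt19 and Lhx9, a split noted after the values had been seen. Of the 50, 15 had UMIs of Krt19 and not Lhx9, 14 of Lhx9 and not Krt19, 1 of both and 20 of neither. The 3 sets had median depths of 8197, 7733 and 6213 UMIs, and each library contributed to each set. After thinning to 2000 UMIs, 4 members had Krt19 and 8 had Lhx9, none both. Because most members had few UMIs of either gene, the lack of a UMI does not show the lack of a transcript. Among the 34 gonadal barcodes, 25 had Lhx9 and 2 had Krt19. Of the 21 barcodes that the rule left out only for a UMI of Nr5a1 or Amhr2, 19 had Lhx9 and 1 had Krt19. Any of these with at least 2 such UMIs count among the gonadal barcodes too. The rule thus removed barcodes in which Lhx9 was common and Krt19 rare. Upk3b was at 671 CPM in the Krt19 set and 522 CPM in the Lhx9 set, Wt1 at 199 and 239 CPM and Aldh1a2 at 342 and 469 CPM, with overlapping counting intervals for each gene.

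**Figure D3:**
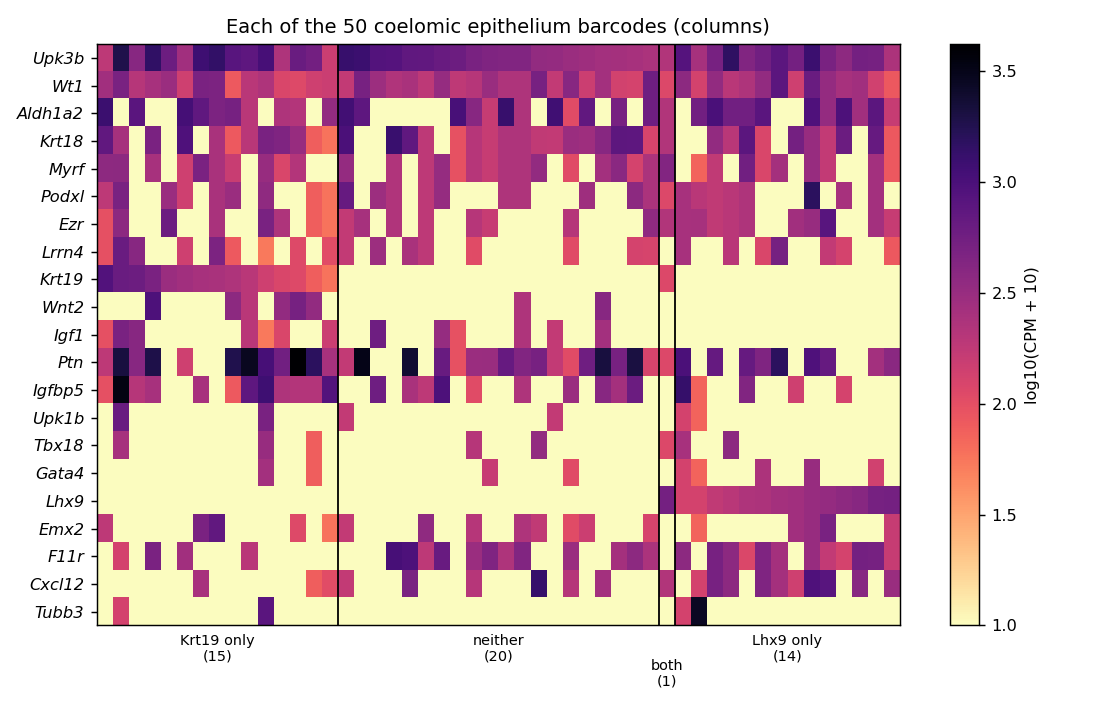
Level of 21 genes, as log10(CPM + 10), in each of the 50 members (columns), ordered by UMIs of Krt19 only (15 members), neither (20), both (1) and Lhx9 only (14). Wnt2 was detected in 8 members, 6 of them in the Krt19 set, and the 2 members rich in Tubb3 stand out in the bottom row.

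The genes named here were chosen because they differed between the sets, and 3 other secreted factors had overlapping counting intervals. Mdk was at 2971 CPM in the Krt19 set and 2716 CPM in the Lhx9 set, Igf2 at 931 and 814 CPM and Bmp4 at 68.5 and 61.9 CPM. Wnt2 was at 158 CPM (99.8 to 236) in the Krt19 set, from 23 UMIs in 6 of 15 members, and had 0 UMIs in the Lhx9 set, which allows up to 32.6 CPM. Igf1, an insulin-like growth factor, was at 89.0 CPM (47.4 to 152) against 0 UMIs. Ptn, a heparin-binding growth factor, was at 1157 CPM (989 to 1345) against 372 CPM (268 to 502), and Igfbp5 at 609 against 159 CPM. One Krt19 member held 28 of the 89 Igfbp5 UMIs, and without each set's own top member the levels were 442 and 66.8 CPM. In the other direction Cxcl12 was at 27.4 CPM (7.50 to 70.1) in the Krt19 set and 248 CPM (165 to 358) in the Lhx9 set. The BMP target Id3 was at 726 against 1610 CPM, and F11r at 41.1 against 239 CPM. The members with neither gene lay between the sets for Wnt2, Igf1, Ptn, Id3 and Cxcl12.

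The same genes were examined in 82 barcodes outside the rule, those with 1 Upk3b UMI or with at least 2 and no Wt1. These played no part in the split, and the 21 left out for Nr5a1 or Amhr2 were not among them. Of these, 17 had Krt19 only and 11 Lhx9 only. Cxcl12 was at 62.6 CPM (27 to 123) in the Krt19 barcodes and 275 CPM (180 to 403) in the Lhx9 barcodes, and Id3 at 728 against 1628 CPM. Ptn was at 775 against 359 CPM, Igfbp5 at 219 against 52.9 CPM and Igf1 at 102 CPM against 0 UMIs. The 53 outside barcodes with neither gene had the highest levels of the 3 outside sets for Ptn (1007 CPM, 909 to 1112), Igfbp5 (271 CPM) and Wnt2 (83.5 CPM). F11r, at 180 against 201 CPM, did not differ beyond its counting intervals there. Wnt2 was at 31.3 CPM, from 4 UMIs, against 0 UMIs with an upper limit of 39.0 CPM, so its difference was not detectable at this depth. In the gonadal barcodes Cxcl12 was at 158 CPM, Ptn at 213 CPM and Igf1 at 25.9 CPM.

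**Figure D4:**
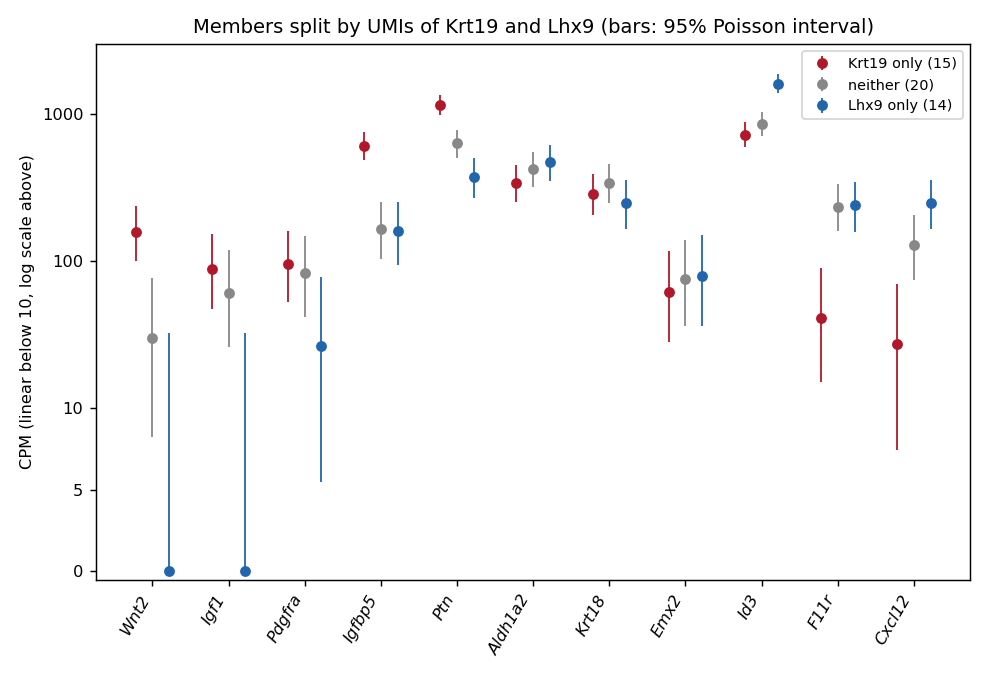
Summed level (CPM, linear below 10 and on a log scale above) of 11 genes in the members with Krt19 only (15), with neither (20) and with Lhx9 only (14), with 95% Poisson intervals. Wnt2, Igfbp5 and Ptn were highest in the Krt19 set, Id3 and Cxcl12 in the Lhx9 set, and Aldh1a2, Krt18 and Emx2 had overlapping intervals.

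Upk1b, a further uroplakin, was rare outside these cells. It had 20 UMIs in 6 of the 50 members, 11 of them in the deepest member, and was at 49.9 CPM in the members and 0.17 CPM in the others. Of the 6 members, 2 had Krt19 and 2 had Lhx9, and none had Wnt2. Tbx18, a T-box factor of mesothelium and ureteric mesenchyme, was found in 8 members, at 47.4 CPM against 5.69 CPM in the others, with 7 of its 19 UMIs in the same deepest member. Hand2, a basic helix-loop-helix factor of splanchnic mesoderm, was found in 9 members at 37.4 against 9.49 CPM. One member held 6 Hand2 UMIs, and no other held more than 2.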

How the data were processed

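The authors deposited raw UMI counts per gene and barcode (27998 genes, 1 pooled matrix), made with Cell Ranger (version not given) on the mm10 build, per the submitters' processing notes. The gene and barcode names that accompany the counts have no unit. The quality filters asked for 1000 UMIs, 500 genes and no more than 10% mitochondrial UMIs, which 9383 of 9492 barcodes met. A library is a barcode suffix. Counts were summed per group, scaled to CPM and compared as log2 ratios with a pseudocount of 10 CPM. The 5 genes of the rule were left out of every comparison, and Tbx18 and Ntrk2 as well against the mesenchyme. Intervals are exact at 95% and cover counting error only; PCR and variation between embryos are outside them. With 1 sample, no p-value was computed. A planned condition on direction, for libraries with at least 20 members, applied to none, as no library held 20. Doublets were left in, and the main values were recomputed without the 5% of each library's barcodes with the highest share of simulated doublets among neighbours. Named genes were the markers, the 12 highest and 10 lowest ratios against the others, the 6 highest and 6 lowest against each neighbour, and for each of the 16 gene lists up to 6 members by level with any called member; 14 marker lists of cell types were counted. Other genes named (such as Gata4, Upk1b, Tbx18, Hand2, Snai2 and those with no UMI) and the Krt19 and Lhx9 sets were chosen after their values were seen. The members and lists were chosen with earlier results of these data known. Gene positions are from GENCODE M21 (mm10) and promoters from RefSeq. Alternatives covered pseudocount, filters, weighting, thinning, libraries, doublets and the rule's thresholds. The comparison script was tested on simulated data. Python 3.11.15, numpy 2.4.6, scipy 1.17.1, pandas 2.3.3 and scikit-learn 1.9.0 were used.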

Additional observations from a re-analysis of the deposited data

Results flagged for a closer look

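Signal of Upk3b was also found in data outside the comparisons. Libraries 5 to 8 held 9 Upk3b UMIs over all their deposited barcodes. Of their 2596 filtered barcodes, 5 had a Upk3b UMI. Of these, 3 had at least 2 Upk3b UMIs and 1 of the 3 had Wt1 as well, but none met the whole rule. No control sample exists for this count, so its background was not tested.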

How the results depend on the processing

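No paired analysis was possible because the matrix is 1 sample and no label ties a library to a replicate. Limits: 50 members give few UMIs per gene, so single barcodes move many ratios. Of 907 recomputed ratios of named genes, 806 stayed within their counting error, 96 moved and 5 reversed. The 806 include 46 ratios each from 2 settings that cannot change a ratio. These were the lack of a filter on low values and the condition of the same direction in libraries 2, 3 and 4. Tubb3 against the mesenchyme ran from -0.69 (without library 4) to 3.75 without 1 library at a time, and was -0.46 without the 2 Tubb3 members. With 1 Upk3b UMI allowed, Mylpf against the others became 0.43 and Actc1 against the mesenchyme 0.062. Acta2 against the mesenchyme became 0.41 without its top barcode there.

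The counts of called genes depended on the settings. The pairs below are higher and lower. A pseudocount of 1 CPM gave 122 and 90 against gonadal barcodes. The mean of per-barcode CPM gave 169 lower against the mesenchyme, and equal weight per library gave 115 higher against gonadal barcodes. Thinning to 2000 UMIs gave 250 and 182 against the others, 510 and 421 against gonadal barcodes and 633 and 683 against the mesenchyme, where 50 CPM corresponds to few UMIs. Without 1 library at a time, the counts ran from 108 to 133 higher and 47 to 86 lower against the others, 94 to 175 and 72 to 134 against gonadal barcodes, and 147 to 205 and 119 to 184 against the mesenchyme. The highest of these came without library 2 or without library 4, and without library 3 there were 132 higher genes against gonadal barcodes. Doublet removal gave 202 and 186 against the mesenchyme. Members numbered 80 with 1 Upk3b UMI, 24 with 4 and 102 with no condition on Wt1. The rule of 4 UMIs gave 183 higher against the others, 186 and 95 against gonadal barcodes and 230 higher against the mesenchyme. No condition on Nr5a1 and Amhr2 gave 112 higher and 75 lower against gonadal barcodes. Of the main calls, 34 of 74 higher and 14 of 57 lower genes remained. Gonadal barcodes that then met the rule counted as members. A scale that sets the median ratio to 0 gave 95 and 55 against the others, 68 and 60 against gonadal barcodes and 121 and 106 against the mesenchyme. The following were chosen after seeing the data. Without each gene's top member, 83 were lower against the others, 32 higher and 94 lower against gonadal barcodes and 69 higher against the mesenchyme, and 70 of the 101 higher genes against the others remained. Without each gene's top comparison barcode, 143 and 31 were called against gonadal barcodes and 217 and 52 against the mesenchyme. The causes were not tested.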
